A study of Rattus norvegicus with 9 samples.

Results

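The genes described here are 31 named genes of cholesterol and fatty acid synthesis in the cerebral cortex of newborn rats. All probe sets whose array annotation gave exactly 1 of these symbols were taken, which came to 49 of the 31099 deposited probe sets and covered 30 of the 31 genes. No probe set carried the symbol Hmgcs1 alone, so that gene is named only. The 30 genes measured were 17 enzymes that lead from acetyl-CoA to cholesterol, 5 genes that sense sterols and regulate the pathway, the sterol carrier Stard4, 3 fatty acid synthesis enzymes and 4 enzymes that lengthen or desaturate fatty acids. Each gene is described by its probe set with the highest mean over the arrays. Further probe sets are given for some genes, and they do not all follow the brightest.

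The animals were Hsd:Sprague Dawley rats whose families ate diets with 0, 750 or 2500 ppm of 4-methylimidazole (4-MeI), a small heterocycle formed when sugars brown. Dietary exposure was continuous and spanned several breedings and generations, so exposure before mating, in the womb and after birth cannot be told apart. The title names maternal seizures, but no label ties them to a pup or litter. Pups of the F2b generation were taken on postnatal day 4, with 1 pup per litter, and their dissected cortex was frozen. RNA of 9 pups, 3 per diet, was measured on 9 Affymetrix Rat Genome 230 2.0 arrays. Values are log2 intensities, so a difference of 1 is a doubling. With 3 arrays a group the number of arrays limits the precision, and the sex of the pups and the array batch are not given in the sources used here.

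Cholesterol is made in the cell from acetyl-CoA through mevalonate, the isoprenyl diphosphates, squalene and lanosterol. The newborn brain makes nearly all of its own cholesterol, because lipoproteins of the blood do not cross the blood-brain barrier, and its demand is high while neurons grow and myelin is laid down. When sterols in the endoplasmic reticulum run low, the escort protein SCAP brings the transcription factors SREBP-1 and SREBP-2, encoded by Srebf1 and Srebf2, to the Golgi, where they are cut and released to the nucleus. There they act with the factors NF-Y, which binds CCAAT, and Sp1, which binds GGGCGG, at the promoters of the enzymes. INSIG proteins hold the escort back when sterols are plentiful.

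Promoter sequences were read from a RefSeq table of assembly GRCr8 for 24 of the 31 genes, in the 250 bases before an annotated start, 1 window per gene. The windows of Acly, Insig2, Scd and Srebf2 lie wholly inside the extent of their genes, so they precede a start within the gene. The letters CCAAT stood on either strand in 18 of these 24 windows (75.0%), against 34.02% of all 33469 promoters in the table. Among the 15 sterol enzymes in the table, Hmgcs1 included, 12 held it (80.0%). GGGCGG, searched likewise on both strands, stood in 20 of 24 windows (83.3%), against 30.47% of all promoters and 38.86% of the promoters of protein-coding genes. CACNCCA, a loose form of the sterol element, stood in 6 of 24 (25.0%), against 14.43%, and CANNTG in 11 of 24 (45.8%), against 65.54%. The longer form TCACNCCAC, which contains CACNCCA, was in 0 of 24 windows and in 0.97% of all promoters. These are matches of letters, not bound sites. The 5 windows shown come from early and late steps of the pathway and span the range of CCAAT copies, from 5 in Mvk through 3 in Msmo1, 2 in Idi1 and 1 in Lss to 0 in Cyp51. They lie at chr12:47819504-47819753 (minus strand), chr16:29746863-29747112 (plus), chr17:66547525-66547774 (minus), chr20:12118231-12118480 (minus) and chr4:30991443-30991692 (plus). Each is printed 5′ to 3′ toward the start of its gene, with CCAAT or its complement ATTGG in capitals.
Mvk: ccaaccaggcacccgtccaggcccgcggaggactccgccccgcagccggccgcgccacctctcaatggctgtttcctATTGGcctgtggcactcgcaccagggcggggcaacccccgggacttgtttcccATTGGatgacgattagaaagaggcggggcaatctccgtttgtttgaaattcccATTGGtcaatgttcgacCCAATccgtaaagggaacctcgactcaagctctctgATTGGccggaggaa
Msmo1: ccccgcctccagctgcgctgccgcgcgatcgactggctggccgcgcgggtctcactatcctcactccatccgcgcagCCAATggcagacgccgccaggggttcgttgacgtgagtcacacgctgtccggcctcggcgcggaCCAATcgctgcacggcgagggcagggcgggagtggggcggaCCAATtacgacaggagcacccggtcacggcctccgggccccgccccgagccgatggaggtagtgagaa
Idi1: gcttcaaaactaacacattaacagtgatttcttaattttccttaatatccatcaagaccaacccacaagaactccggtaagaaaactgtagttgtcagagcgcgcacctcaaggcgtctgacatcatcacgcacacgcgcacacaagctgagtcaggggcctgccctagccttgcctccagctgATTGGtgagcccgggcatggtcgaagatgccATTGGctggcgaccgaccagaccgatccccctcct
Lss: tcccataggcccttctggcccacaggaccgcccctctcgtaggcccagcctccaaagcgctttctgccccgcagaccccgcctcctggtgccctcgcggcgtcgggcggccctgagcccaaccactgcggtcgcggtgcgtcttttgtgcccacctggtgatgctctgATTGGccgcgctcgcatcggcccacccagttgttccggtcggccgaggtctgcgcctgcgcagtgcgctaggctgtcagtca
Cyp51: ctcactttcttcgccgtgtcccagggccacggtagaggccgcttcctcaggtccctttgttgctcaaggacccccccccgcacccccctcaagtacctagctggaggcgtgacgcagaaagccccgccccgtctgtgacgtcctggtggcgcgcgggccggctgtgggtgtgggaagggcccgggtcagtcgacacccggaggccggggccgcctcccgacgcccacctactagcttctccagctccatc

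The arrays had similar overall intensity, with medians from 7.67 to 7.71, and correlations within groups were 0.994 or higher after rounding. Control replicate 3 and 750 ppm replicate 3 stood apart from their groups in the genes described here, so results are given with all 9 arrays and without control replicate 3. The markers of cortical neurons had means of 8 genes from 11.72 to 11.89 on all arrays. Single members varied more, as Gad1 did from 10.77 to 12.14. At 2500 ppm 2 of the 8, Gad1 and Bcl11b, lay below all controls, where 13.4% of all probe sets did. Markers of neighbouring tissues were unequal between the groups, and whether through dissection or expression was not tested. The mean of 14 meningeal and fibroblast markers spanned 8.56 to 9.65 in controls, 10.21 to 10.47 at 750 ppm and 9.84 to 10.26 at 2500 ppm. The mean of 7 choroid plexus and ependymal markers spanned 7.08 to 7.23 in controls, 7.31 to 7.56 at 750 ppm and 8.07 to 9.35 at 2500 ppm. All 13 striatal markers had a lower mean at 2500 ppm than in controls, with a median difference of -1.10. Of these, 1 passed the test and 9 lay below all controls, against 0.686% and 13.4% of all probe sets. In the same comparison 2 of the 14 meningeal and fibroblast markers and 1 of the 7 choroid plexus and ependymal markers passed. Above all controls lay 8 and 5 of them, against 9.87% of all probe sets. At 750 ppm 0 markers of these 2 lists passed. There 14 of the 14 meningeal and fibroblast and 1 of the 7 choroid plexus and ependymal markers lay above all controls, against 7.61%. Fewer cells of a type and less RNA per cell cannot be told apart in bulk tissue.

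No gene of the 30 passed the test in any comparison of the dose groups, by any of its tested probe sets. The counts that follow use the brightest probe set of each gene. In 750 ppm against control, 0 of 30 had an adjusted p under 0.05 in limma's test, and 0 had an unadjusted p under 0.05. Over the array, 0.00920% of the 21729 probe sets tested passed the first threshold and 10.1% the second. In 2500 ppm against control the counts were 0 and 1, against 0.686% and 16.0% of all probe sets. In 2500 ppm against 750 ppm they were 0 and 0, against 0.322% and 12.6%. The smallest adjusted p of any of the 30 genes by its brightest probe set was 0.511, 0.266 and 0.423 in these comparisons. Over their further probe sets it was 0.378 (Scap), 0.0853 (Sc5d) and 0.0684 (Sc5d).

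**Figure D1:**
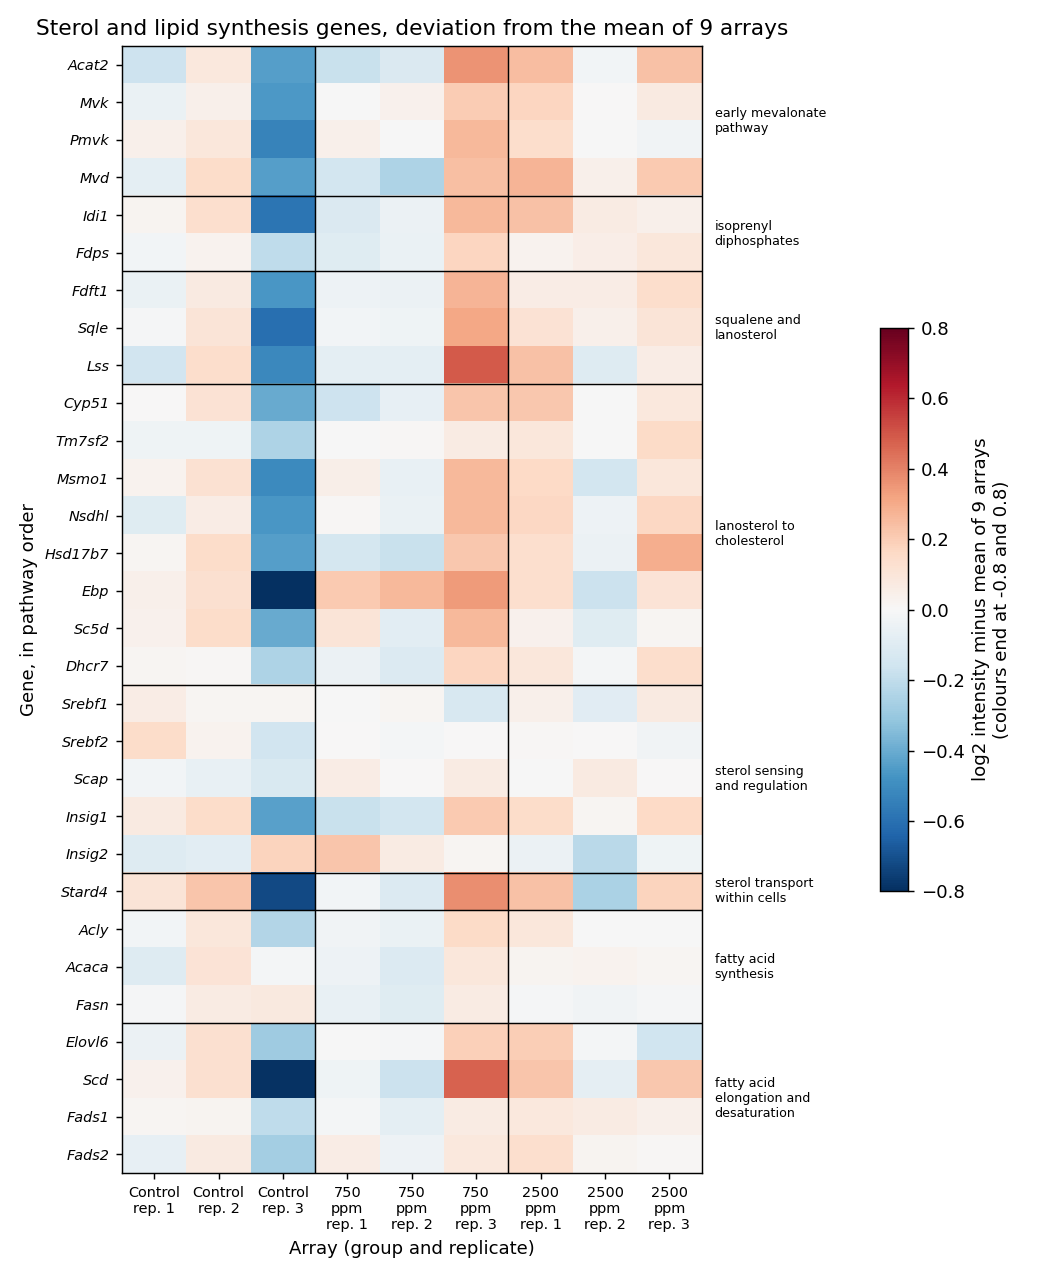
Deviation of each of the 30 genes from its mean over the 9 arrays (colour, log2; rows in pathway order with the steps at the right, columns the arrays by group and replicate). The column of control replicate 3 is the lowest of the 9 in 26 of the 30 rows, and that of 750 ppm replicate 3 is the highest in 18.

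Differences from control were mostly positive. At 750 ppm 26 of the 30 genes had a mean above control and 4 below it, with a median difference of 0.13 on the log2 scale, while the median of all 11606 genes was 0.018. At 2500 ppm the split was again 26 and 4, with a median of 0.17 against 0.020 for all genes. All 17 sterol enzymes had positive differences in both, with medians of 0.20 at 750 ppm and 0.24 at 2500 ppm. Both comparisons use the same 3 control arrays. Between 2500 and 750 ppm, 20 differences were positive and 10 negative, with a median of 0.020.

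That majority was smaller without 1 array. Control replicate 3 was already known from these data to be outlying. Leaving it out necessarily lowers the difference from control of any gene that is lowest on it. Without control replicate 3, 17 of the 30 differences at 750 ppm were positive and 13 negative, with a median of 0.0049 (all genes 0.011). At 2500 ppm 18 were positive and 12 negative, with a median of 0.037 (all genes 0.0065). The sterol enzymes then had 12 positive of 17 at 750 ppm (median 0.032) and 13 of 17 at 2500 ppm (median 0.055). The median of the 30 genes was 0.21 at 750 ppm and 0.28 at 2500 ppm without control replicate 2, and 0.063 at 750 ppm without 750 ppm replicate 3.

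**Figure D2:**
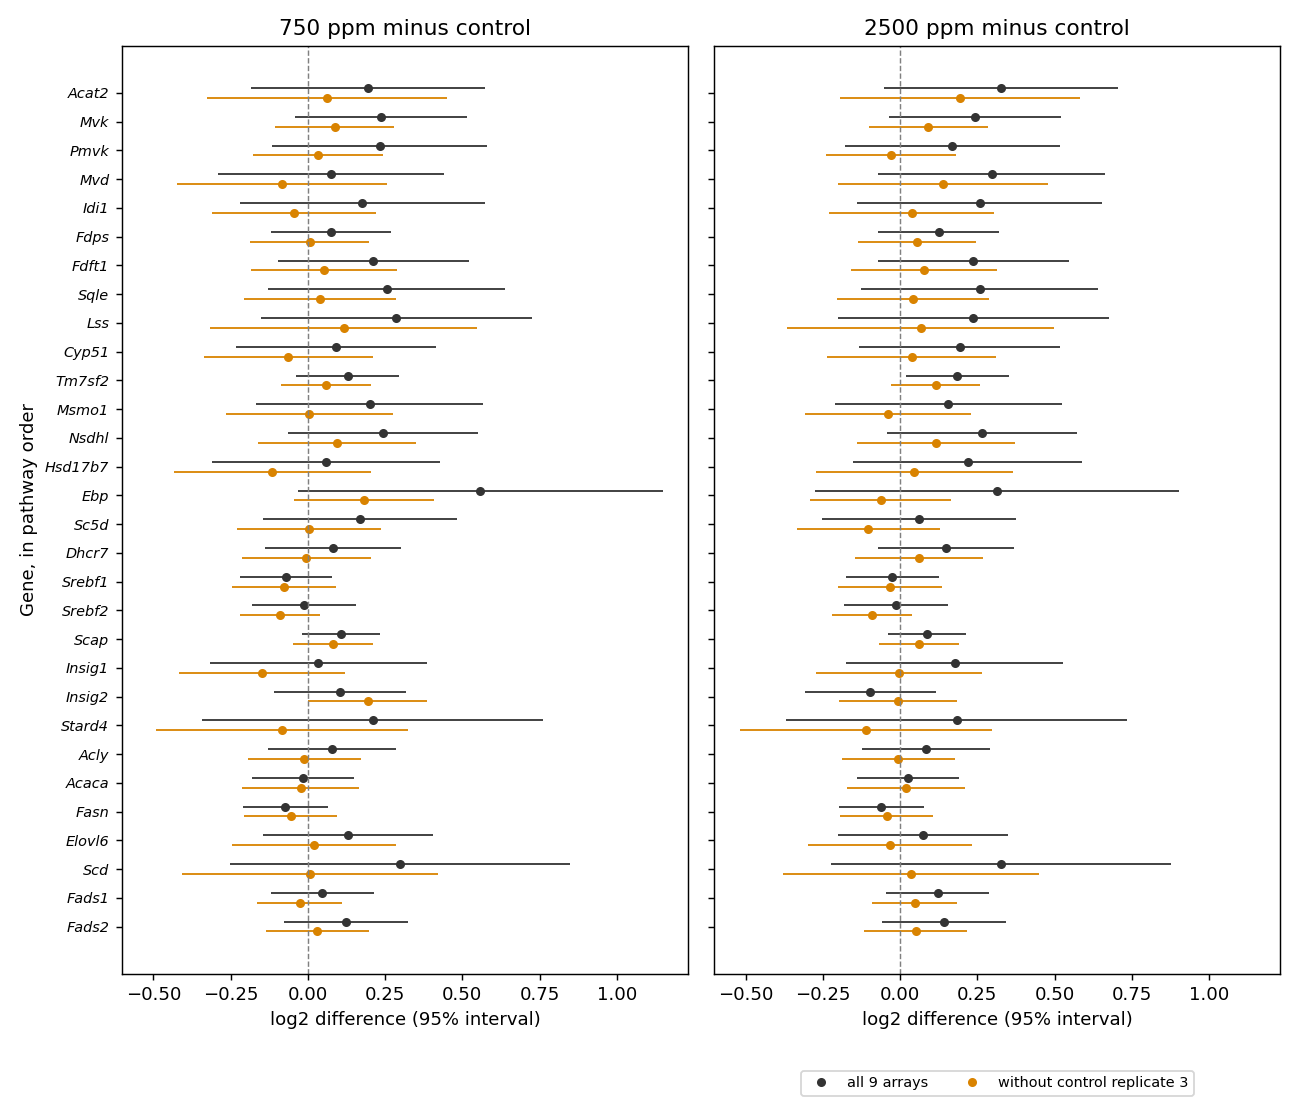
Log2 difference from control of each gene at 750 ppm (left) and 2500 ppm (right), with limma's 95% confidence interval, from all 9 arrays (dark points) and without control replicate 3 (orange points). The interval with all arrays excludes 0 for Tm7sf2 at 2500 ppm alone (0.02 to 0.35), and the orange points lie nearer 0 for most of the 17 sterol enzymes.

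At the entrance of the pathway, Acat2 encodes the thiolase that joins acetyl-CoA units. Its log2 intensity was 12.03, 12.28 and 11.75 in the controls, 12.02, 12.08 and 12.56 at 750 ppm, and 12.44, 12.18 and 12.43 at 2500 ppm. Control replicate 3 was the lowest array and 750 ppm replicate 3 the highest, and all groups overlapped. The difference from control was 0.20 at 750 ppm (SE 0.17, adjusted p = 0.697) and 0.33 at 2500 ppm (95% interval -0.05 to 0.71, adjusted p = 0.382). They were 0.06 and 0.19 without control replicate 3.

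Next come Mvk and Pmvk, the kinases that phosphorylate mevalonate, and Mvd, the decarboxylase that makes the first isoprenyl unit. Mvk averaged 9.82 (SD 0.27) in controls, 10.06 (SD 0.11) at 750 ppm and 10.07 (SD 0.087) at 2500 ppm, n = 3 each. Its difference was 0.24 at both concentrations (SE 0.12, adjusted p = 0.547 and 0.380) and 0.09 at both without control replicate 3. Pmvk had control replicate 3 at 10.10 and every other array between 10.61 and 10.90, with differences of 0.23 and 0.17 that became 0.03 and -0.03 without that array. Mvd differed by 0.07 at 750 ppm and by 0.30 at 2500 ppm (SE 0.16, adjusted p = 0.411), and by -0.08 and 0.14 without control replicate 3. None of these steps separated the groups.

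Idi1, the isomerase of isopentenyl diphosphate, read 13.10, 13.21 and 12.50 in the controls. The 750 ppm arrays were at 12.97, 13.03 and 13.34, and the 2500 ppm arrays at 13.32, 13.15 and 13.12. Controls 1 and 2 lay within the range of the treated arrays, and control replicate 3 lay below all of them. Its difference at 2500 ppm was 0.26 (95% interval -0.14 to 0.66, adjusted p = 0.507) with all arrays and 0.04 without control replicate 3. Fdps, which makes farnesyl diphosphate, was narrower in range. It read between 12.77 and 13.00 in controls and between 13.01 and 13.06 at 2500 ppm, so those groups did not overlap, with a difference of 0.13 (SE 0.087, adjusted p = 0.513) that was 0.06 without control replicate 3.

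Squalene is made by the product of Fdft1, oxidised by that of Sqle and closed into lanosterol by that of Lss. Lss varied over 1.01 log2 units, with 10.94, 11.23 and 10.57 in controls, 11.01, 11.01 and 11.58 at 750 ppm, and 11.32, 10.98 and 11.14 at 2500 ppm. Control replicate 3 and 750 ppm replicate 3 were its extremes. Differences from control were 0.29 (SE 0.19, adjusted p = 0.617) and 0.24 (adjusted p = 0.582), and 0.12 and 0.07 without control replicate 3. For Sqle control replicate 3 was at 11.41, and the other 8 arrays lay between 11.98 and 12.32. Its differences of 0.25 and 0.26 both became 0.04 when that array was left out. Fdft1 differed by 0.21 and 0.24, and by 0.05 and 0.08 without it.

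The enzymes from lanosterol to cholesterol remove methyl groups and move or reduce double bonds. Among them Ebp, the sterol isomerase, had the widest range of the 30 genes. It read 8.16, 8.25 and 7.08 in the controls, 8.33, 8.38 and 8.46 at 750 ppm, and 8.26, 7.95 and 8.23 at 2500 ppm. Every 750 ppm array lay above every control and every 2500 ppm array. Relative to the mean of the other controls, control replicate 3 was at -1.13. The difference at 750 ppm was 0.56 (SE 0.26, 95% interval -0.03 to 1.15, adjusted p = 0.511), and 0.18 without that array. Between 2500 and 750 ppm it was -0.25 (adjusted p = 0.741), with an unadjusted p of 0.0238 and an adjusted p of 0.271 without control replicate 3.

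Tm7sf2, a sterol reductase, was the one gene of the 30 with an unadjusted p under 0.05. Its values were 10.35, 10.36 and 10.14 in controls, 10.38, 10.40 and 10.46 at 750 ppm, and 10.48, 10.39 and 10.54 at 2500 ppm. The treated arrays all lay above all controls, and the nearest arrays were at 10.38 and 10.36. At 2500 ppm the difference was 0.18 (SE 0.074, adjusted p = 0.266), and 0.11 without control replicate 3 (adjusted p = 0.452). At 750 ppm it was 0.13 (adjusted p = 0.577), and 0.06 without that array.

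**Figure D3:**
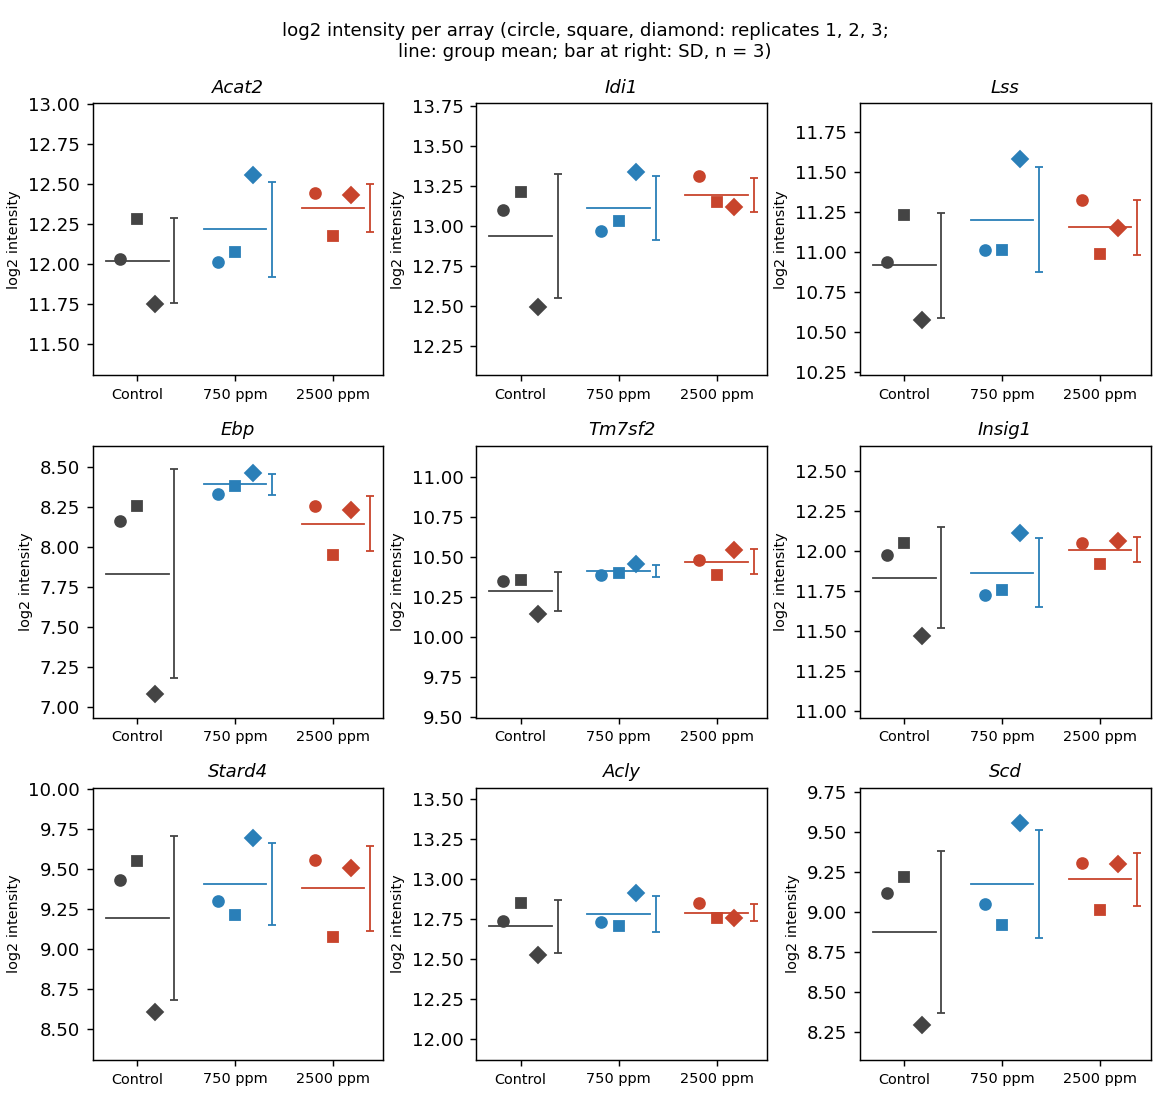
Log2 intensity of 9 genes on each array (circle, square and diamond for replicates 1, 2 and 3), with the group mean as a line and the SD (n = 3) as a bar; each panel has its own level and all span the same number of log2 units. The diamond of the control group is the lowest point in every panel, at 7.08 for Ebp and 8.30 for Scd, and that of the 750 ppm group is the highest in all panels but Tm7sf2.

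The other enzymes of this stretch showed the same low array. Cyp51, the lanosterol demethylase, read 11.86 on control replicate 3 and between 12.10 and 12.49 elsewhere, with differences of 0.09 and 0.19. Msmo1, which oxidises the methyl groups, read 11.61 there and between 11.98 and 12.38 elsewhere, with differences of 0.20 and 0.16 that became 0.00 and -0.04 without that array. Nsdhl, the decarboxylating dehydrogenase, differed by 0.24 (adjusted p = 0.570) and 0.26 (adjusted p = 0.385), and Hsd17b7, which reduces the sterol ketone, by 0.06 and 0.22. Dhcr7, the reductase that yields cholesterol, differed by 0.08 and 0.15. Without control replicate 3 the differences of these 5 genes lay between -0.12 and 0.12.

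Sc5d, the sterol desaturase before Dhcr7, was read by 3 probe sets that did not give the same picture. The gene lies on chromosome 8 from 51526669 to 51538277 in GRCr8, and which of its exons each probe set matches is not given in the sources used here. The brightest, 1389111_at, followed the pathway, with 10.49, 10.61 and 10.06 in controls, 10.56, 10.38 and 10.72 at 750 ppm, and 10.49, 10.37 and 10.48 at 2500 ppm. Its groups overlapped, with differences of 0.17 and 0.06 from control. Without control replicate 3 they were 0.0028 and -0.10, so the sign at 2500 ppm turned to that of the other probe sets.

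Probe set 1390777_at of Sc5d was lower at 2500 ppm than in both other groups. It read 10.25, 10.29 and 10.58 in controls, 10.62, 10.42 and 10.37 at 750 ppm, and 10.02, 9.81 and 9.89 at 2500 ppm. Control replicate 3 was here the highest control. The difference was -0.46 from control (SE 0.10, 95% interval -0.70 to -0.23, adjusted p = 0.0853) and -0.56 from 750 ppm (adjusted p = 0.0684), so neither passed over all probe sets. With control replicate 3 left out the difference from 750 ppm did pass, at an adjusted p of 0.0442. It also passed when 750 ppm replicate 3 was left out, at an adjusted p of 0.0289. Probe set 1387926_at read 9.17, 9.44 and 9.24 in controls, 9.66, 9.40 and 9.63 at 750 ppm, and 9.16, 8.93 and 9.12 at 2500 ppm. It also had its 2500 ppm arrays below all others, the nearest at 9.16 and 9.17. Its difference was -0.21 from control (adjusted p = 0.352) and -0.49 from 750 ppm (SE 0.10, adjusted p = 0.0973). Both probe sets were singled out after their values were seen.

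**Figure D4:**
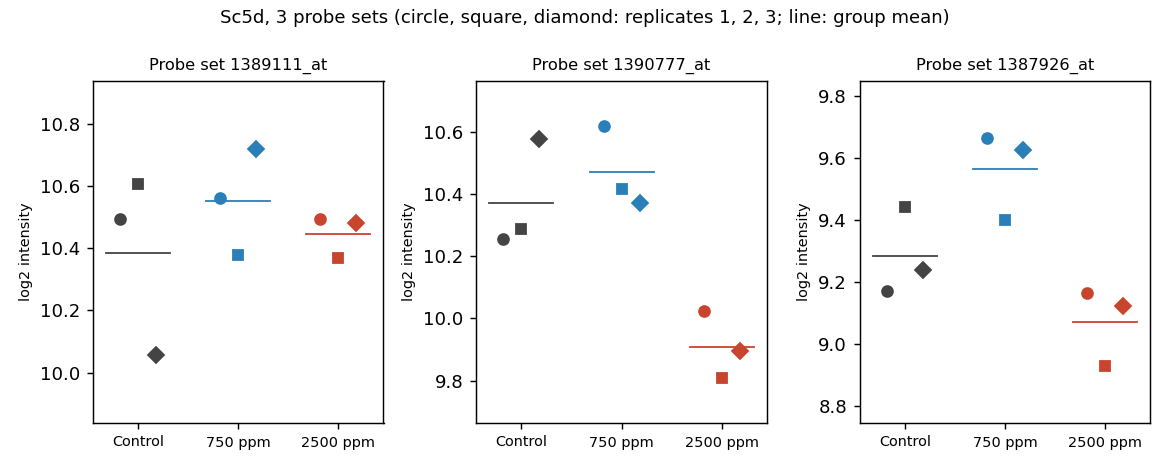
Log2 intensity of the 3 probe sets of Sc5d on each array (circle, square and diamond for replicates 1, 2 and 3; line, group mean). On 1390777_at the 2500 ppm arrays lie between 9.81 and 10.02, below all other arrays, while on 1389111_at they lie between 10.37 and 10.49, inside the range of the controls.

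Of the regulators, Insig1, whose own transcription SREBPs drive, had its extremes on the same arrays as most enzymes. It read 11.98, 12.05 and 11.47 in controls, 11.72, 11.76 and 12.11 at 750 ppm, and 12.05, 11.92 and 12.06 at 2500 ppm. Control replicate 3 was again the lowest array and 750 ppm replicate 3 the highest. Differences from control were 0.03 and 0.18 (SE 0.16, adjusted p = 0.958 and 0.610), and -0.15 and -0.0041 without control replicate 3. Insig2, the other retention protein, ran the other way on control replicate 3, with 9.43, 9.45 and 9.71 in controls, 9.76, 9.60 and 9.55 at 750 ppm, and 9.48, 9.32 and 9.50 at 2500 ppm. Its 2500 ppm arrays all lay below its 750 ppm arrays, with a difference of -0.20 (SE 0.094, adjusted p = 0.423). Its further probe set 1393690_at gave -0.24 for the same comparison (adjusted p = 0.313) and 0.24 at 750 ppm against control (adjusted p = 0.409).

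The transcription factor genes themselves had ranges below the median of all genes tested, which was 0.35. Srebf2 read 10.76, 10.65 and 10.46 in controls and between 10.59 and 10.62 on all 6 treated arrays, with a difference of -0.01 at both concentrations (SE 0.075). Srebf1 lay between 9.07 and 9.27 on all 9 arrays, and control replicate 3 was at 9.21. Scap had a range of 0.19 over the arrays, and its controls (10.28 to 10.39) lay below its 750 ppm arrays (10.40 to 10.47) and its 2500 ppm arrays. The differences were 0.11 (adjusted p = 0.546) and 0.09 (adjusted p = 0.478), but its dimmer probe set 1384464_at gave -0.25 at 750 ppm (adjusted p = 0.378).

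Stard4, which carries cholesterol between membranes, read 9.43, 9.55 and 8.60 in controls. It read 9.30, 9.21 and 9.69 at 750 ppm, and 9.56, 9.07 and 9.50 at 2500 ppm. Controls 1 and 2 were within the range of the treated arrays, and control replicate 3 was at -0.88 relative to their mean. Its differences were 0.21 and 0.18 (SE 0.24, adjusted p = 0.781 and 0.748), and -0.09 and -0.11 without that array.

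Fatty acid synthesis genes had ranges from 0.17 to 0.39 over the 9 arrays, where the median range of all genes tested was 0.35. Acly, which splits citrate into acetyl-CoA, read 12.74, 12.85 and 12.53 in controls, 12.73, 12.71 and 12.91 at 750 ppm, and 12.85, 12.76 and 12.76 at 2500 ppm. Its differences were 0.08 at both concentrations (SE 0.092), and -0.012 and -0.0059 without control replicate 3. Fasn, the fatty acid synthase, had the smallest range of the 30 genes. It read 13.00, 13.07 and 13.09 in controls, 12.95, 12.91 and 13.08 at 750 ppm, and 13.00, 12.98 and 13.00 at 2500 ppm, with control replicate 3 as its highest array. Acaca, the acetyl-CoA carboxylase, differed by -0.02 and 0.03. The 95% intervals of Fasn were -0.21 to 0.06 at 750 ppm and -0.20 to 0.08 at 2500 ppm.

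Downstream, Scd, the desaturase of stearoyl-CoA, was lowest on control replicate 3 and highest on 750 ppm replicate 3. It read 9.12, 9.22 and 8.30 in controls, 9.05, 8.92 and 9.56 at 750 ppm, and 9.31, 9.01 and 9.30 at 2500 ppm. The differences of 0.30 and 0.33 (95% interval at 2500 ppm -0.22 to 0.88, adjusted p = 0.544) became 0.01 and 0.04 without control replicate 3. Elovl6, which lengthens palmitate, differed by 0.13 and 0.07, and Fads2, a desaturase of polyunsaturated fatty acids, by 0.12 and 0.14. Leaving out control replicate 3 made these 0.02 and -0.03 for Elovl6 and 0.03 and 0.05 for Fads2. Fads1, its partner desaturase, read between 11.44 and 11.66 in controls and between 11.68 and 11.73 at 2500 ppm. Those groups did not overlap, with a difference of 0.12 (SE 0.074, adjusted p = 0.459), and 0.05 without control replicate 3.

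Counts of genes with all treated arrays above all controls were near the background. At 750 ppm 3 of 30 genes had all arrays above all controls (Tm7sf2, Ebp and Scap) and 0 had all below, against 7.61% and 6.58% of all probe sets. At 2500 ppm 4 did (Fdps, Tm7sf2, Scap and Fads1) and 0 lay below, against 9.87% and 13.4%. Between 2500 and 750 ppm 0 lay above and 2 below (Ebp and Insig2), against 7.88% and 9.52%. Of the 11606 genes with 1 probe set each, 1147 lay above and 607 below at 750 ppm. The counts were 1428 and 1207 at 2500 ppm, and 902 and 1075 between the doses.

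Across arrays, the lowest and highest values gathered on a pair of arrays. As control replicate 3 was known from these same data to be outlying, its counts here are descriptive. Control replicate 3 was the lowest of the 9 arrays in 26 of 30 genes and in 17 of 17 sterol enzymes, and in 29.4% of all 11606 genes. The exceptions were Srebf1, Insig2, Acaca and Fasn. Relative to the mean of the other controls, the 30 genes had a median of -0.45, the sterol enzymes -0.48, with a range from -1.13 (Ebp) to -0.21 (Fdps), and all genes -0.017. By step, the median was -0.46 for the early mevalonate genes, -0.44 for the isoprenyl diphosphates, -0.51 for squalene and lanosterol and -0.48 from lanosterol to cholesterol. It was -0.30 for elongation and desaturation, -0.083 for sensing and regulation and -0.023 for fatty acid synthesis. On this array 19 of 30 genes were more than 0.3 below the mean of the other 8 arrays, against 13.2% of genes, and 11 were more than 0.5 below, against 4.97%.

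The 750 ppm replicate 3 stood at the other end. It was the highest array in 18 of 30 genes and 14 of 17 sterol enzymes, and in 11.9% of all genes. It exceeded the mean of the other 750 ppm arrays by a median of 0.25 for the 30 genes and 0.28 for the sterol enzymes, with -0.0072 for all genes. More than 0.3 above the mean of the other 8 arrays lay 7 of 30 genes, against 2.76% of genes. With both of these arrays left out, a choice made after the data were seen, 7 of the 30 differences at 750 ppm were positive and 23 negative, with a median of -0.08.

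Further probe sets of the same genes followed less closely. Of the 18 that were tested, 8 were lowest on control replicate 3 and 9 highest on 750 ppm replicate 3. Over all 49 probe sets the counts were 34 and 27. One, the second of Srebf2, was too dim to be tested. Against control, Mvk probe set 1375401_at gave -0.03 at 750 ppm and -0.11 at 2500 ppm. Stard4 probe set 1386279_at gave -0.12 and -0.11, where the brightest of both genes were positive. Acaca probe set 1387538_at gave -0.12 and -0.09. Srebf1 probe set 1371104_at gave -0.13 at 2500 ppm (adjusted p = 0.339), with its arrays below all controls.

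Lists of cell type markers were set beside these values. The mean deviation of the 17 sterol enzymes was -0.03, 0.09 and -0.47 in the controls, -0.04, -0.05 and 0.26 at 750 ppm, and 0.15, -0.02 and 0.12 at 2500 ppm. Meningeal and fibroblast markers were also lowest on control replicate 3, in 14 of 14 genes, with -0.19, -0.71 and -1.28 in the controls. They were 0.63, 0.46 and 0.37 at 750 ppm and 0.00, 0.30 and 0.42 at 2500 ppm, so that 750 ppm replicate 3 was not their highest array. Their part in the low array, and that of the cell types below, was not tested.

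Endothelial markers were lowest on control replicate 3 in 7 of 9 genes, with a mean deviation of -0.49, and microglial markers in 6 of 8, with -0.38. Oligodendrocyte lineage markers, of the cells that make myelin, were lowest there in 4 of 9, with -0.12, against 0.14 and 0.15 in the other controls. Their mean level spanned 9.19 to 9.47 in controls, 9.09 to 9.20 at 750 ppm and 9.32 to 9.59 at 2500 ppm. Astrocyte markers were lowest there in 1 of 10 (-0.07) and neuron markers in 0 of 8 (0.04). Striatal markers averaged 0.64, 0.26 and 0.39 in the controls, 0.59, 0.49 and -0.82 at 750 ppm, and -0.90, -0.08 and -0.57 at 2500 ppm, so 750 ppm replicate 3 lay in the range of the 2500 ppm arrays. Astrocyte markers averaged -0.21 on 750 ppm replicate 3, against 0.16 and 0.08 in its group. The choroid plexus list averaged -0.59, -0.75 and -0.68 in the controls and -0.39, -0.26 and -0.51 at 750 ppm, so neither array stood apart in its mean. Single markers varied more, as Ttr did with 7.70, 7.34 and 8.17 in the controls and 9.29, 10.01 and 7.91 at 750 ppm.

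In RNA quality, control replicate 3 lay within its group, and 750 ppm replicate 3 had the lowest actin value of the 9. The 3′ minus 5′ difference of the actin control probe sets was 1.04, 0.93 and 1.02 in the controls, 0.89, 0.89 and 0.83 at 750 ppm, and 1.00, 0.96 and 0.91 at 2500 ppm. That of the GAPDH control probe sets lay between -0.068 and 0.054. The 7 spike-in control probe sets examined, which read RNAs added in the laboratory, did differ on these arrays. Control replicate 3 was the highest array for 7 of 7, with a mean deviation of 0.18, and 750 ppm replicate 3 the lowest for 5 of 7, with -0.13. The other 7 arrays had mean deviations between -0.066 and 0.099. A ribosomal RNA control probe set read 8.29, 7.84 and 8.34 in the controls, 7.45, 7.65 and 6.73 at 750 ppm, and 7.56, 7.76 and 7.56 at 2500 ppm. The part of these technical differences in the low and high arrays was not tested.

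**Figure D5:**
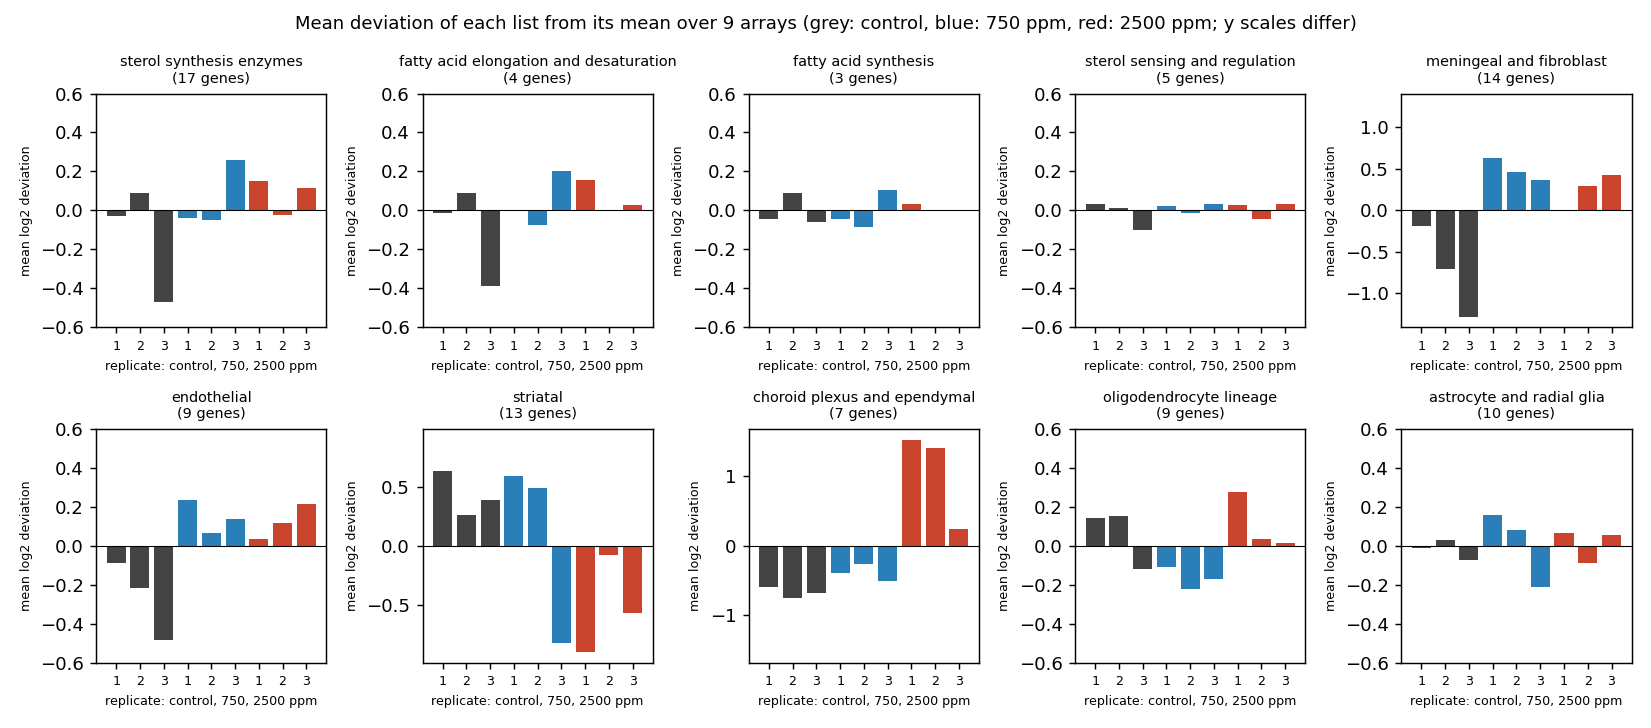
Mean log2 deviation of each gene list from its own mean over the 9 arrays, in 10 panels (bars: arrays, replicates 1 to 3 of control in grey, 750 ppm in blue and 2500 ppm in red; vertical scales differ). The sterol enzymes reach -0.47 on control replicate 3 and 0.26 on 750 ppm replicate 3, while the meningeal list reaches -1.28 on the former and is at 0.37 on the latter.

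Genes around the pathway that were not among the 30 also had no called difference. Of 10 further genes of sterol synthesis, uptake and sensing, 16 of sterol transport, efflux and turnover and 24 of fatty acid and glycerolipid synthesis, 0 had an adjusted p under 0.05 in any of the 3 comparisons. At an unadjusted p under 0.05 the 3 lists had 0, 4 and 1 genes at 750 ppm, 2, 5 and 3 at 2500 ppm, and 1, 1 and 1 between the doses, where 10.1%, 16.0% and 12.6% of all probe sets did. Their median differences lay between -0.035 and 0.091 over the 3 comparisons, and control replicate 3 was the lowest array in 0, 5 and 9 of them.

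The 3 smallest p-values over these lists in each comparison came from the following genes. At 750 ppm they were those of Ch25h, which hydroxylates cholesterol, at 0.51 (adjusted p = 0.201), the lipoprotein receptor Lrp1 at -0.31 (adjusted p = 0.351) and Soat1, which esterifies cholesterol, at 0.25 (adjusted p = 0.412). At 2500 ppm they were those of Pgrmc1, a haem-binding partner of sterol enzymes, at -0.26 (adjusted p = 0.139), Soat1 at 0.32 (adjusted p = 0.145) and Acss2, which makes acetyl-CoA from acetate, at 0.32 (adjusted p = 0.173). Between 2500 and 750 ppm they were Lrp1 at 0.33 (adjusted p = 0.254), Me1, the cytosolic malic enzyme, at -0.30 (adjusted p = 0.267) and Pgrmc1 at -0.22 (adjusted p = 0.273). The controls of Soat1 (6.17, 6.38 and 6.23) and Ch25h (6.33, 6.32 and 6.40) lay at or near the filter limit of 6.35, so those genes were tested through their higher treated arrays, and their differences rest on controls near background.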

How the data were processed

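Total RNA, 100 ng per pup, was amplified per the labels' protocols with a 3′ kit that primes near the end of transcripts, with 16 hours of in vitro transcription, and hybridised to 1 array. Per the submitters' processing notes, the authors used the affy package and RMA (background correction, quantile normalization and summary of the probes of a set), with versions not given in the sources used here. The deposited values are log2 intensities, 1 per probe set and array. They carry no detection call, differences near background are compressed, and quantile normalization hides any overall shift in RNA amount.

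Gene names came from GEO's platform annotation. Of 31042 probe sets other than 57 AFFX controls, 20826 carried 1 symbol, 436 several and 9780 none. The 30% with the lowest mean, under 6.35, were left out, which kept 21729 probe sets, 48 of the 49 described here and all 30 that stand for a gene. The 9 arrays were fitted together, with a mean for each group, in limma 3.58.1 (R 4.3.3) with empirical Bayes variances (median residual SD 0.108). Tests were two-sided, p-values were adjusted over all 21729 probe sets by Benjamini-Hochberg within each contrast, and the threshold was 0.05. An exact permutation test of 3 against 3 cannot go below 0.1. Medians over all genes use 11606 genes, 1 probe set each. In simulated data for 2500 ppm against control with 21729 probe sets, the fit recovered 92% of 100 probe sets set to 2-fold. It recovered 74% of 100 set to 1.5-fold, and called 6 unchanged probe sets. The changed probe sets were drawn at random, with noise independent between arrays. Arrays that deviate in many genes at once were not simulated, so these shares do not apply to the 30 genes. Values were tried under other filters, scalings, variance models and sets of arrays.

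Genes and lists, and the attention to control replicate 3, were chosen with earlier results of these data known. Given array by array are the widest-ranging gene of each step and any with an unadjusted p under 0.05 by its brightest probe set. Of the surrounding genes the 3 smallest p-values per contrast are given. Values of Sqle, Sc5d, Srebf2, Insig2, Fasn and others were added after they were seen. Promoters are from RefSeq, assembly GRCr8, and gene positions are those of the gene, not the probes. Each pup is a separate litter, so p-values measure the spread between single pups of different litters. That spread also holds variation of dissection and array, which cannot be told apart from that of litters.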

Additional observations from a re-analysis of the deposited data

How the results depend on the processing

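In every setting run, 0 of the 30 genes passed in any of the 3 comparisons by its brightest probe set. Over 600 single values per comparison the smallest adjusted p was 0.142 at 750 ppm, 0.141 at 2500 ppm and 0.0600 between the doses, and 52, 30 and 57 of them changed sign. The median difference of the 30 genes ranged from 0.0049 (without control replicate 3) to 0.21 at 750 ppm, from 0.037 (without control replicate 3) to 0.28 at 2500 ppm, and from -0.020 to 0.11 between the doses when each array was left out. It was -0.0068, 0.073 and 0.057 with array weights, and -0.076 at 750 ppm without both control replicate 3 and 750 ppm replicate 3. The highest medians against control were those without control replicate 2, and the median at 750 ppm without 750 ppm replicate 3 was 0.063. Why these arrays deviated was not tested.

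Counts of probe sets called over the whole array moved more. At 750 ppm the 2 became 340 with array weights, 1 with only the compared groups in the fit or with 1 probe set per gene, and 71 without both of those arrays. They ranged from 0 (without control replicate 2 or 3 or 2500 ppm replicate 1 or 3) to 48 (without 750 ppm replicate 3), with 44 without control replicate 1. At 2500 ppm the 149 became 1495, 481, 66 and 263 in these settings. They ranged from 9 (without 2500 ppm replicate 2) to 466 (without 750 ppm replicate 3). Between the doses the 70 became 721, 14, 40 and 1149, and ranged from 13 (without 750 ppm replicate 1) to 731 (without 750 ppm replicate 3). The replicate numbers did not pair the arrays (correlations of deviations from -0.21 to 0.31), and with the number as a block the counts were 2, 122 and 36.

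The probe set 1390777_at of Sc5d kept its sign in all 18 settings, chosen after the data were seen. Between the doses its adjusted p ranged from 0.0103 to 0.249 and passed in 4 (array weights, without control replicate 3, without 750 ppm replicate 3, and without both). At 2500 ppm against control it ranged from 0.0195 to 0.222 and passed in 1, array weights. Probe set 1387926_at also kept its sign in all 18 settings but passed in 0. Its adjusted p ranged from 0.0510 to 0.299 between the doses and from 0.318 to 0.581 at 2500 ppm against control.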
